A study of Mus musculus with 85 samples.

Results

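The macrophage colony-stimulating factor axis was described by 6 genes, taken by their symbols from the 23608 genes of the expression tables. They are the ligand genes Csf1 and Il34, their receptor gene Csf1r, and the receptor genes of related growth factors, Csf2ra, Csf2rb and Csf3r. All 6 were found. The question was where in the liver the ligands and receptors were expressed and how their levels varied with strain and treatment.

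Colony-stimulating factor 1 (CSF1, also called M-CSF), the product of Csf1, and interleukin-34, the product of Il34, are separate ligands of the receptor tyrosine kinase CSF1R, on which the survival and proliferation of most tissue macrophages depend. Kupffer cells, the macrophages that line the liver sinusoids, meet these ligands in a niche formed by sinusoidal endothelial cells, hepatic stellate cells and hepatocytes. GM-CSF signals through a ligand-binding chain encoded by Csf2ra and a beta chain encoded by Csf2rb, and G-CSF signals through CSF3R, which is best known from neutrophils.

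RNA-seq was performed on 85 mouse libraries in 30 groups. Of these, 69 came from inbred mice (C57BL/6J, BALB/cJ or A/J) and 16 from CB6F1/J, a cross between C57BL/6J and BALB/cJ. The labels name no engineered allele in the cells measured and no ages. Untreated Kupffer cells had 2 libraries per strain, liver sinusoidal endothelial cells (LSECs) 4 per strain, hepatic stellate cells 4 in A/J and BALB/cJ and 3 in C57BL/6J, and hepatocytes 2, 2 and 3 in the same order. Kupffer cells had been sorted as CD45-positive, F4/80-high and CD146-negative cells, and LSECs as CD45-negative, CD146-positive cells. Stellate cells had been sorted by their vitamin A autofluorescence and side scatter, with no marker named to exclude other cells. Livers were digested with the transcription inhibitor flavopiridol present. Bone marrow-derived macrophages (BMDMs) were grown in medium conditioned by L929 cells, a source of M-CSF, so the ligand of CSF1R was supplied to them, and each strain had 2 BMDM libraries with buffer (PBS) and 2 with Kdo2-lipid A (KLA, a purified lipopolysaccharide, 100 ng per ml), named KLA in the sample titles and LPS in the treatment labels. Kupffer cells were also taken 2 h after an intraperitoneal injection of lipopolysaccharide (LPS, 0.1 mg per kg). These came from male BALB/cJ and C57BL/6J mice fasted overnight, with 2 libraries each. The methods describe fasted controls that were not injected. The labels do not say whether the untreated Kupffer libraries, used here as the controls, came from fasted mice. A steatohepatitis-inducing diet rich in fat, fructose and cholesterol (AMLN) was fed for 30 weeks and gave 4 A/J, 3 BALB/cJ and 4 C57BL/6J Kupffer libraries. The study's methods describe mice of its own C57BL/6 colony for this diet, while the labels read C57BL/6J. The same untreated Kupffer libraries of the inbred strains served as controls for LPS, for the diet and for the grafts described next. Diet and age cannot be told apart, and neither can fasting where it differed between a group and these controls. NSG mice, immunodeficient hosts without mature lymphocytes, were conditioned with busulfan, which the paper says depletes resident Kupffer cells. They were given blood stem cells, with CB6F1/J, C57BL/6J and BALB/cJ as donors. The graft-derived Kupffer cells gave 3 libraries per donor. Host, cell origin, conditioning, time after grafting and sorting gate differ together from untreated Kupffer cells and cannot be told apart. CB6F1/J mice gave in addition 4 untreated and 5 LPS Kupffer libraries, and 2 PBS and 2 KLA BMDM libraries.

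Library totals ranged from 5.25 to 42.78 M counts in the inbred strains and from 55.37 to 158.37 M in the hybrid. Marker genes followed the labels: the summed level of 8 Kupffer markers, in TPM (a level scaled for transcript length and library size), was 17395 to 18983 in untreated Kupffer cells and 145 to 209 in PBS BMDMs, and 9 LSEC markers summed to 11774 to 15568 in LSECs. The stellate libraries were mixed. Besides 16040 to 34398 TPM of 10 stellate markers, they held 437 to 7498 TPM of the Kupffer markers and 2160 to 6423 TPM of the LSEC markers. Bulk libraries do not tell fewer cells of a type from less RNA per cell. Below, differences are log2 fold changes ± SE from edgeR's quasi-likelihood test, p-values are adjusted (Benjamini-Hochberg) over all genes tested in a contrast, and a gene was called when that p was under 0.05 and the absolute log2 fold change above 1. Genes were tested with a mean above 8 TPM in a group of the contrast.

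Csf1 was expressed by stellate cells and LSECs. The gene lies on chromosome 3 from 107741048 to 107760469 of mm10. Its level in A/J LSECs was 96.5, 97.1, 105 and 115 TPM, in BALB/cJ LSECs 112, 105, 136 and 138 TPM, and in C57BL/6J LSECs 87.5, 58.8, 74.5 and 78.5 TPM. All BALB/cJ and A/J LSEC libraries lay above all C57BL/6J ones, whereas A/J and BALB/cJ overlapped. In stellate cells it was 133, 129.7, 105 and 145 TPM in A/J, 188, 171, 185 and 175 TPM in BALB/cJ and 103, 94.97 and 116 TPM in C57BL/6J. Every BALB/cJ stellate library was above every library of the other strains. Hepatocytes held 1.00 to 2.67 TPM (n = 7) and untreated Kupffer cells 0.630 to 3.32 TPM (n = 6), so the macrophages themselves carried little transcript of their growth factor.

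Il34 was a stellate cell gene. It lies on chromosome 8 from 110741829 to 110805949. Stellate cells held 135, 141, 83.4 and 121 TPM in A/J, 79.6, 82.8, 74.9 and 108 TPM in BALB/cJ, and 88.4, 91.7 and 120.2 TPM in C57BL/6J, and the strains overlapped. LSECs held 1.49 to 6.12 TPM (n = 12), and no library of untreated Kupffer cells, hepatocytes or PBS BMDMs passed 1.09 TPM. In LSECs the Il34 level went with the stellate markers: the 2 A/J libraries at 6.12 and 5.70 TPM held 1313 and 990.3 TPM of them, and the others at 2.09 and 1.49 TPM held 338 and 449 TPM. The part of stellate RNA in the LSEC value was not tested.

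**Figure D1:**
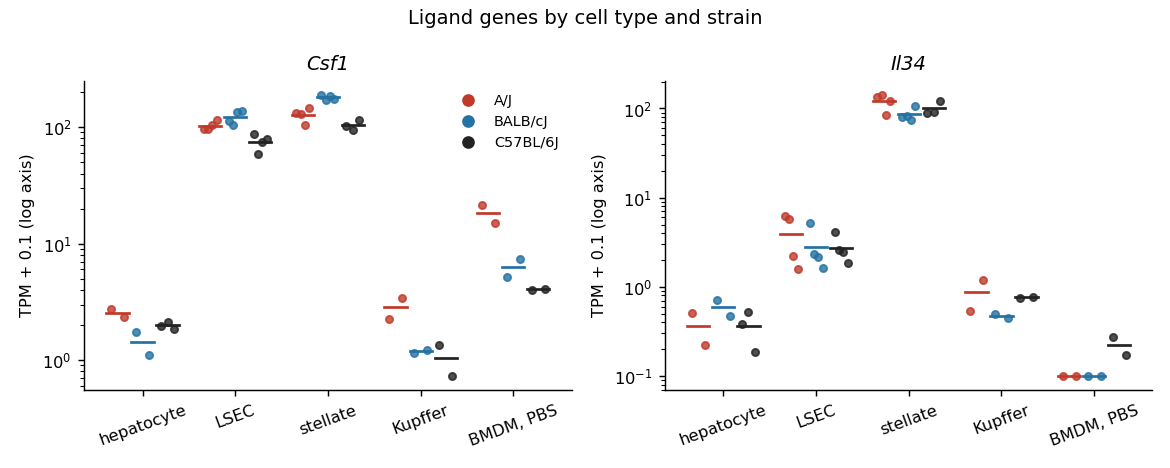
TPM (plus 0.1, log axis) of Csf1 and Il34 in each untreated or PBS library of the 3 inbred strains; points are libraries and dashes are group means. Csf1 is high in both LSECs (58.8 to 138 TPM) and stellate cells (94.97 to 188 TPM), Il34 in stellate cells alone of these cell types (74.9 to 141 TPM).

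Fitted over the 4 liver cell types with strain as a term, 27 member differences were called, in contrasts where the share of all genes tested that were called was 19.5% (LSEC against stellate), 36.5% (Kupffer against stellate), 37.6% (Kupffer against LSEC), 60.1% (Kupffer against hepatocyte), 60.8% (LSEC against hepatocyte) and 61.5% (stellate against hepatocyte). Csf1 was higher in stellate cells than in Kupffer cells (Kupffer minus stellate -6.26 ± 0.27, adjusted p = 2.4e-20), and higher in LSECs than in Kupffer cells (Kupffer minus LSEC -5.67 ± 0.26, adjusted p = 1.0e-19). Between the source cells, Csf1 in LSECs minus stellate cells was -0.59 ± 0.16 (adjusted p = 0.0017), under the fold limit. Il34 was higher in stellate cells than in LSECs (LSEC minus stellate -5.20 ± 0.22, adjusted p = 1.3e-19). The order of Csf1 levels was therefore stellate, LSEC, BMDM (3.92 to 21.4 TPM with PBS), hepatocyte and Kupffer, of which stellate cells and LSECs overlapped (94.97 to 188 and 58.8 to 138 TPM), as did hepatocytes and Kupffer cells. No member reached the level filter between strains of hepatocytes, where 5.48%, 3.67% and 9.25% of genes were called for A/J against BALB/cJ, A/J against C57BL/6J and BALB/cJ against C57BL/6J.

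Strain differences of Csf1 in its source cells passed the adjusted p but stayed under the fold limit, and no member was called in LSECs, where 2.67%, 4.14% and 3.86% of genes were called for A/J against BALB/cJ, A/J against C57BL/6J and BALB/cJ against C57BL/6J. BALB/cJ minus C57BL/6J gave 0.73 ± 0.12 in LSECs (adjusted p = 0.00063) and 0.82 ± 0.11 in stellate cells (adjusted p = 2.0e-04). A/J minus C57BL/6J gave 0.53 ± 0.12 in LSECs (adjusted p = 0.0062) and 0.36 ± 0.11 in stellate cells (adjusted p = 0.019). A/J minus BALB/cJ gave -0.46 ± 0.10 in stellate cells (adjusted p = 0.0036) and -0.20 ± 0.12 in LSECs (adjusted p = 0.30). The lowest Csf1 mean was that of C57BL/6J in both cell types. The stellate libraries also differed in their markers: stellate markers averaged 20122 TPM in A/J, 30599 TPM in BALB/cJ and 24288 TPM in C57BL/6J, and Kupffer markers 4249, 752 and 2034 TPM. LSEC markers averaged 4938, 3463 and 5383 TPM in the same order. The part of LSEC RNA in Csf1 of the stellate libraries was not tested. The Kupffer marker sums of the strains did not overlap, so a fit with that sum cannot separate it from strain. With the log2 Kupffer marker sum as a covariate, added after seeing the data, Csf1 in stellate cells was -0.29 (adjusted p = 0.55) in A/J minus BALB/cJ, 0.42 (adjusted p = 0.029) in A/J minus C57BL/6J and 0.71 (adjusted p = 0.011) in BALB/cJ minus C57BL/6J, and A/J minus C57BL/6J had an adjusted p of 0.063 with only these groups fitted. Il34 in stellate cells was 0.50 ± 0.18 for A/J minus BALB/cJ (adjusted p = 0.051; 0.48 and 0.035 in DESeq2), and 1.18 (adjusted p = 0.13) with the covariate. The other strain pairs of Il34 gave 0.32 for A/J and -0.17 for BALB/cJ against C57BL/6J, or 0.57 (adjusted p = 0.059) and -0.61 (adjusted p = 0.13) with the covariate, none called.

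BMDMs differed in Csf1. With PBS, A/J BMDMs held 21.4 and 14.9 TPM, BALB/cJ 5.04 and 7.24 TPM, C57BL/6J 3.92 and 3.97 TPM, and CB6F1/J 4.30 and 4.50 TPM. The A/J libraries stood above all others. A/J exceeded BALB/cJ in Csf1 (1.53 ± 0.18, adjusted p = 4.6e-05) and also C57BL/6J (2.13 ± 0.18, adjusted p = 3.5e-06), both called, among 4 member calls in PBS BMDMs against 4.25%, 5.66% and 4.66% of genes called in the strain pairs, in the order given above. In untreated Kupffer cells, where Csf1 stayed under the level filter, A/J held 2.16 and 3.32 TPM, BALB/cJ 1.06 and 1.13 TPM and C57BL/6J 1.25 and 0.630 TPM. A/J was again the highest of the strains, at levels that were not tested. Kupffer minus BMDM gave -2.27 ± 0.16 (adjusted p = 2.7e-09) for Csf1, in a contrast with 31.5% of genes called.

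Of the transcription start sites of these genes, 3 members (Csf1, Csf3r and Csf2ra) matched an entry in the RefSeq table of GRCm38.p6 (the assembly of mm10) from which sequence is given, and Csf1r, Il34 and Csf2rb are named only. They are shown because Csf1 and Csf3r moved with endotoxin in these macrophages, whereas Csf2ra was not called for it. The 250 bases before each start site are given 5′ to 3′ on the strand of the gene. The start used for Csf3r lies inside its gene span (from 126023441), so that whole stretch is within the annotated gene. The Csf2ra stretch overlaps its gene span (to 61228461) next to the start. That overlap holds its GAGGAA and C/EBP matches. Capitals mark matches to letters searched on both strands: an NF-kB consensus, GAGGAA (PU.1), TTNNNCAA (C/EBP), TGACGTCA (CRE), TGANTCA (AP-1) and TTCNNNGAA (GAS).
Csf1, chr3:107760470-107760719, minus strand: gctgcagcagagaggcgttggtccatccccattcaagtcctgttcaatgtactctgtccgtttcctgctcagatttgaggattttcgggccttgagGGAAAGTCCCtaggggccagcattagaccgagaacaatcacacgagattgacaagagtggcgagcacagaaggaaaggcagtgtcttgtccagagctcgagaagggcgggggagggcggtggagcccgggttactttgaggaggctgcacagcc
Csf3r, chr4:126024409-126024658, plus strand: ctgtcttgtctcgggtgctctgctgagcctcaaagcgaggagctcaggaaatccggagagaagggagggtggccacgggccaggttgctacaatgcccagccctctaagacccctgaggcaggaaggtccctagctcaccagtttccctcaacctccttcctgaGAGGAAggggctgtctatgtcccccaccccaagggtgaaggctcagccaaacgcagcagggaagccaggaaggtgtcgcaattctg
Csf2ra, chr19:61228419-61228668, minus strand: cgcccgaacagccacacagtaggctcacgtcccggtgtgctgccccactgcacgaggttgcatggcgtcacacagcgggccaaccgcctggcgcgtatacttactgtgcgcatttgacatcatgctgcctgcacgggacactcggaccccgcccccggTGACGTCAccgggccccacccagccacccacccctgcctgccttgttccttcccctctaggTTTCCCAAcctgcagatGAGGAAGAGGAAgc
The Csf1 stretch held 1 match to the NF-kB consensus, on the opposite strand, 154 bases before the start; 4.004% of 27025 mouse promoter windows hold it. The Csf3r stretch held GAGGAA 86 bases before the start, and the Csf2ra stretch held it 14 and 8 bases before the start; 23.134% of windows hold it. Csf2ra also held TGACGTCA 92 bases before the start (1.624% of windows) and a C/EBP match 31 bases before it (33.562%). The AP-1 letters, in 6.868% of windows, and the GAS letters, in 7.179%, were in none of the 3 stretches. A match is a description of letters and was not tested as a binding site.

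The receptor genes were expressed by macrophages. Csf1r, on chromosome 18 from 61105572 to 61131139, was the most abundant: A/J Kupffer cells held 2745 and 3154 TPM, BALB/cJ 2500 and 2513 TPM, and C57BL/6J 2951 and 2931 TPM. PBS BMDMs held 709 to 1054 TPM (n = 6), below every Kupffer library. Kupffer minus BMDM was 1.84 ± 0.06 (adjusted p = 1.9e-14). Csf1r was also called higher in Kupffer cells than in LSECs (8.76 ± 0.55), hepatocytes (8.13 ± 0.68) and stellate cells (3.78 ± 0.48). Csf1r did not pass the adjusted p between strains of untreated Kupffer cells, where 0 members were called, also in DESeq2, against 3.38%, 4.61% and 5.70% of genes. Of all member tests there with the level filter, 1 passed the adjusted p: Csf3r in BALB/cJ minus C57BL/6J, at -0.40 ± 0.11 (adjusted p = 0.018).

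Csf2ra, which encodes the GM-CSF-binding chain, lies on chromosome 19 from 61217191 to 61228461. Kupffer cells held 305 to 390.2 TPM (n = 6) and PBS BMDMs 189 to 279.7 TPM (n = 6), and the ranges did not overlap. The difference of 0.66 ± 0.07 (adjusted p = 6.8e-08) was under the fold limit. Csf2rb, on chromosome 15 from 78325800 to 78351001, encodes the beta chain shared by the receptors of GM-CSF, IL-3 and IL-5. It was 181 and 187 TPM in A/J, 263 and 144 TPM in BALB/cJ and 187 and 191 TPM in C57BL/6J Kupffer cells, with the widest gap between libraries of 1 group in BALB/cJ. In PBS BMDMs it was 54.6 and 52.8 TPM in A/J, 79.6 and 62.6 TPM in BALB/cJ and 121 and 104 TPM in C57BL/6J. The 3 strains did not overlap in BMDMs. A/J was called lower than C57BL/6J (-1.14 ± 0.12, adjusted p = 1.7e-06), while A/J minus BALB/cJ (-0.44 ± 0.12, adjusted p = 0.0065) and BALB/cJ minus C57BL/6J (-0.70 ± 0.12, adjusted p = 0.00024) stayed under the fold limit. Kupffer minus BMDM was 1.497 ± 0.15 (adjusted p = 1.1e-05).

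Csf2rb has a neighbouring near copy, Csf2rb2, which encodes an IL-3-specific beta chain and lies from 78282507 to 78305721 on the same chromosome. Of 5219 windows of 50 bases in the GENCODE transcripts of Csf2rb, 892 (17.1%) also occur in those of Csf2rb2, so reads of the pair may be divided between them and the values of either are uncertain to that extent. Csf2rb2 in PBS BMDMs was 41.8 and 42.0 TPM in A/J, 55.3 and 46.0 TPM in BALB/cJ and 128 and 110.5 TPM in C57BL/6J. It was called lower than in C57BL/6J both in A/J (-1.58 ± 0.10, adjusted p = 2.0e-09) and in BALB/cJ (-1.27 ± 0.10, adjusted p = 3.3e-08). LPS raised Csf2rb2 in Kupffer cells of BALB/cJ (1.27 ± 0.23), from 128 and 79.1 TPM to 196 and 151 TPM, of C57BL/6J (1.497 ± 0.23), from 84.5 and 90.6 TPM to 169.6 and 142 TPM, and of CB6F1/J (1.57 ± 0.09).

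Csf3r, on chromosome 4 from 126023441 to 126044975, was 89.4 and 99.3 TPM in A/J, 83.0 and 84.5 TPM in BALB/cJ and 109 and 118 TPM in C57BL/6J Kupffer cells. PBS BMDMs held 24.4 and 22.9 TPM in A/J, 48.1 and 46.6 TPM in BALB/cJ, 47.2 and 35.8 TPM in C57BL/6J and 18.0 and 27.5 TPM in CB6F1/J. Every Kupffer library of an inbred strain was above every BMDM library, by 1.57 ± 0.07 (adjusted p = 3.3e-13). In BMDMs, A/J was below the other inbred strains, which overlapped. A/J minus BALB/cJ was called (-1.03 ± 0.20, adjusted p = 0.0029), at the fold limit: without the A/J library 2 it was -0.99, and without the BALB/cJ library 1 it was -0.999, both no longer past the limit. The same strain pair differed by 0.12 ± 0.11 in Kupffer cells (adjusted p = 0.47). The interaction, the strain difference in Kupffer cells minus that in BMDMs, was 1.14 ± 0.16 (adjusted p = 7.9e-05), called where 9.22% of genes were. The other strain pairs gave interactions of 0.59 ± 0.16 (adjusted p = 0.013) in A/J minus C57BL/6J and -0.54 ± 0.16 (adjusted p = 0.023) in BALB/cJ minus C57BL/6J, under the fold limit, where 7.94% and 7.32% of genes were called.

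**Figure D2:**
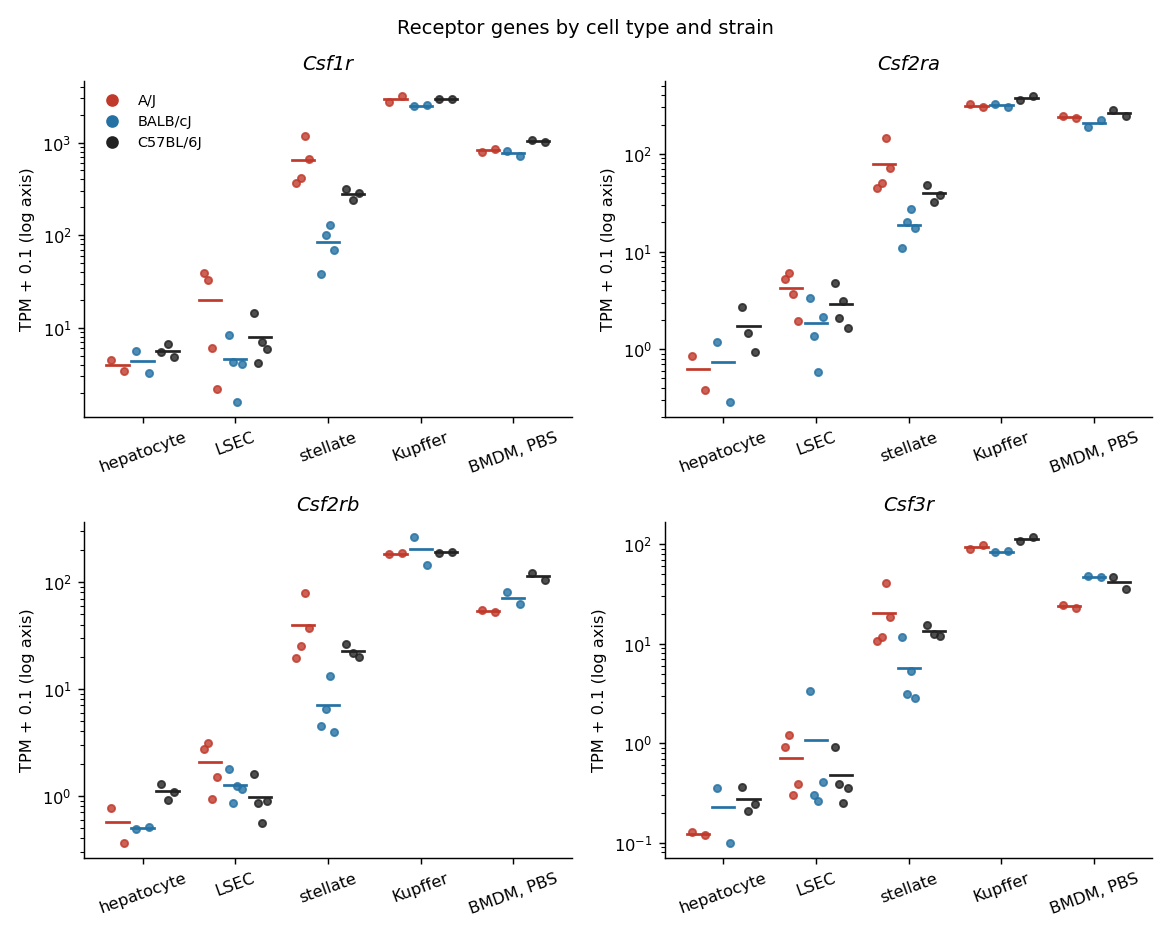
TPM (plus 0.1, log axis) of the 4 receptor genes in each untreated or PBS library of the 3 inbred strains; points are libraries and dashes are group means. Kupffer cells are highest for each receptor. BALB/cJ stellate libraries (Csf1r 37.9 to 129 TPM) are below A/J ones (362 to 1167 TPM), and their lowest Csf1r and Csf3r values overlap with the highest LSEC values.

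Stellate libraries differed in all 4 receptor genes between A/J and BALB/cJ. Csf1r was 362, 411, 1167 and 663 TPM in A/J, 37.9, 100.2, 129 and 68.4 TPM in BALB/cJ and 313, 242 and 287 TPM in C57BL/6J. The 3 strains did not overlap. A/J exceeded BALB/cJ, with calls, in Csf1r (2.99 ± 0.47, adjusted p = 0.0010), Csf2ra (2.09 ± 0.41), Csf2rb (2.56 ± 0.51) and Csf3r (1.95 ± 0.53, adjusted p = 0.017), and BALB/cJ lower than C57BL/6J in Csf1r (-1.70 ± 0.47) and Csf2rb (-1.65 ± 0.53), 6 calls where 8.32% and 9.08% of genes were called; A/J against C57BL/6J gave 0 member calls in edgeR and 2 in DESeq2, where 7.30% of genes were called, and Csf1 alone passed an adjusted p of 0.05. These receptor values moved with the Kupffer markers. Their sum was 2561, 2797, 7498 and 4139 TPM in A/J, 437, 810, 1086 and 676 TPM in BALB/cJ and 2287, 1759 and 2058 TPM in C57BL/6J stellate libraries, and 8 of 8 were called higher in A/J against BALB/cJ. Csf1r was 8.68 to 16.01% of the sum in stellate libraries (median 13.7%, n = 11) and 13.2 to 18.1% in Kupffer libraries (median 15.7%, n = 6). Csf2ra was 1.75 to 2.56% of it in stellate and 1.61 to 2.21% in Kupffer libraries, and Csf2rb 0.567 to 1.22% and 0.760 to 1.44%. With the log2 marker sum as a covariate, a fit added after seeing the data, 0 of the 6 calls were left, and Csf1r for A/J minus BALB/cJ became -0.042 (adjusted p = 0.95). The marker sums of the 3 strains did not overlap, so this fit cannot separate strain from marker content. The part of Kupffer RNA in the receptor values was not tested. Leaving out single libraries gave 4 to 8 calls. Csf3r in the BALB/cJ stellate library 1 was 11.5 TPM against 2.76 to 5.24 TPM in the others, and that library held 57.5 TPM of 8 neutrophil markers against 1.15 to 7.52 TPM. Its part in the Csf3r value was not tested.

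**Figure D3:**
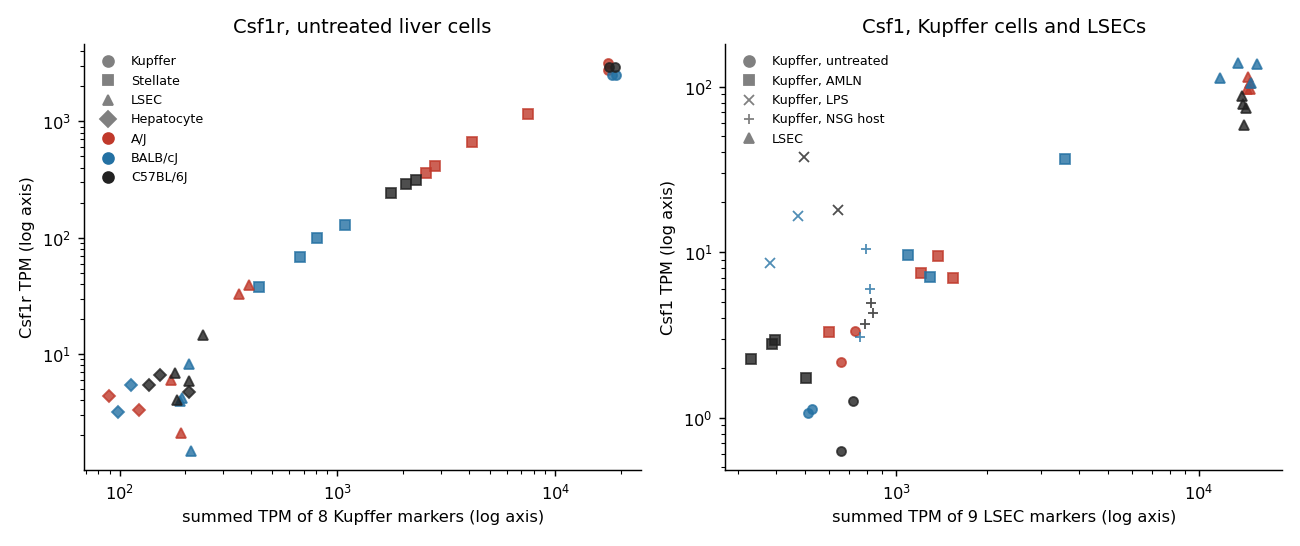
Left, Csf1r TPM against the summed TPM of 8 Kupffer markers in each untreated liver library; right, Csf1 TPM against the summed TPM of 9 LSEC markers in Kupffer and LSEC libraries (all axes log). Stellate libraries extend towards the Kupffer libraries along the left plot; on the right, the BALB/cJ AMLN library with 36.4 TPM of Csf1 has 3599 TPM of LSEC markers, while LPS libraries hold 8.56 to 37.5 TPM of Csf1 with 381 to 641 TPM.

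LPS raised Csf1 and Csf3r in Kupffer cells. The comparison asked how strains differ in their answer to endotoxin, the bacterial lipid sensed by TLR4. Csf1 went from 1.06 and 1.13 TPM to 8.56 and 16.5 TPM in BALB/cJ, from 1.25 and 0.630 TPM to 17.9 and 37.5 TPM in C57BL/6J, and in CB6F1/J from 1.41 to 1.97 TPM (n = 4) to 17.4 to 29.1 TPM (n = 5). No LPS library overlapped with an untreated one. The differences were 4.03 ± 0.56 (adjusted p = 0.00084), 5.55 ± 0.59 (adjusted p = 0.00019) and 4.61 ± 0.17 (adjusted p = 1.2e-10) in BALB/cJ, C57BL/6J and CB6F1/J. The responses of BALB/cJ and C57BL/6J differed by -1.52 ± 0.79 (adjusted p = 0.45). LSEC markers summed to 381 to 641 TPM in the inbred LPS libraries and 512 to 732 TPM in the untreated ones. Markers of other cells were higher with LPS. Monocyte markers went from 11.4 to 20.9 TPM to 110 to 134 TPM in BALB/cJ and from 23.0 to 54.9 TPM to 178 to 234 TPM in CB6F1/J, and were 124 to 183 TPM and 176 to 211 TPM in C57BL/6J. Erythroid and platelet markers went from 127 to 196 TPM to 335 to 480.3 TPM in BALB/cJ, from 67.5 to 97.6 TPM to 165 to 220.1 TPM in C57BL/6J and from 65.4 to 125 TPM to 319 to 743 TPM in CB6F1/J. Hepatocyte markers in C57BL/6J went from 165 to 445 TPM to 626 to 1528 TPM. Their part in the Csf1 values was not tested.

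Csf3r went from 83.0 and 84.5 TPM to 139 and 134 TPM in BALB/cJ, from 109 and 118 TPM to 196 and 204 TPM in C57BL/6J, and from 73.0 to 82.2 TPM to 108 to 159 TPM in CB6F1/J. Again no libraries overlapped. It was called at 1.24 ± 0.14, 1.49 ± 0.14 and 1.68 ± 0.10, and members gave 4 calls in the inbred strains and 2 in the hybrid, where 31.8% (BALB/cJ), 38.2% (C57BL/6J) and 39.4% (CB6F1/J) of genes were called. With library totals in place of TMM factors, the median of all genes moved from 0.0465 to -0.487 in BALB/cJ, from 0.0812 to -0.592 in C57BL/6J and from 0.115 to -0.711 in CB6F1/J. Relative to the median, Csf3r was 1.20, 1.41 and 1.56 under TMM and 1.20, 1.40 and 1.56 under totals, but without that reference the totals gave 0.71, 0.81 and 0.85, under the fold limit. Neutrophil markers, genes of cells that express Csf3r, were higher with LPS: their sum was 1.61 to 10.2 TPM in untreated and 41.9 to 127 TPM in LPS libraries of the inbred strains. In BALB/cJ LPS libraries 3 of the 8 (Ly6g, Ltf and Camp) were at 0, and 2 of 8 passed the filter, both called higher. The part of neutrophil RNA in the Csf3r values was not tested.

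Csf1r, Csf2ra and Csf2rb were not called for LPS with TMM factors. Csf1r was 1395 and 1409 TPM with LPS in BALB/cJ, 1693 and 1343 TPM in C57BL/6J and 966 to 1403 TPM in CB6F1/J, and every LPS library was below the untreated ones in TPM (2500 to 2951 TPM in BALB/cJ and C57BL/6J, 2307 to 2699.8 TPM in the hybrid). The summed Kupffer markers were also lower in TPM, at 9179 to 12020 with LPS. In the TMM fit Csf1r was -0.30 ± 0.13 (adjusted p = 0.065), -0.29 ± 0.13 (adjusted p = 0.070) and -0.25 ± 0.10 (adjusted p = 0.028), or -0.35, -0.37 and -0.37 relative to the median of all genes. With library totals it was -0.84 (adjusted p = 0.00078), -0.95 (adjusted p = 0.00027) and -1.08 (adjusted p = 1.4e-07), the last past the fold limit. Csf2ra was -0.06 ± 0.13 in BALB/cJ and 0.57 ± 0.13 in C57BL/6J, with a difference between the responses of -0.62 ± 0.19 (adjusted p = 0.19). Csf2rb was 0.61 ± 0.24 (adjusted p = 0.058) and 0.85 ± 0.25 (adjusted p = 0.013), and 0.08 and 0.18 with library totals. The sign changed with library totals for Csf2ra in C57BL/6J (to -0.11) and CB6F1/J (0.38 to -0.44) and for Csf2rb in CB6F1/J (0.74 to -0.08). Of the differences between strains in the LPS response, 0 members were called in edgeR and in DESeq2, with 0.645% of genes called and none of the members under an adjusted p of 0.05.

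KLA raised Csf1 in BMDMs. The gene went from 21.4 and 14.9 TPM to 224 and 222 TPM in A/J, from 5.04 and 7.24 TPM to 145 and 129.7 TPM in BALB/cJ, from 3.92 and 3.97 TPM to 79.3 and 84.3 TPM in C57BL/6J and from 4.30 and 4.50 TPM to 92.1 and 96.2 TPM in CB6F1/J. A/J was highest and C57BL/6J lowest with KLA as with PBS. The differences were 3.96 ± 0.18, 4.81 ± 0.19, 4.68 ± 0.19 and 4.77 ± 0.10, the only member calls (3 in the inbred strains, 1 in the hybrid) where 12.3%, 14.0%, 17.1% and 12.5% of genes were called. The response of A/J minus that of BALB/cJ was -0.85 ± 0.24 (adjusted p = 0.070), and minus that of C57BL/6J -0.71 ± 0.24 (adjusted p = 0.11), neither past the threshold. These differences had 0.967% and 1.59% of genes called, and BALB/cJ against C57BL/6J, with 0.13 ± 0.25 (adjusted p = 0.80), 1.14%. Without A/J PBS library 2 or BALB/cJ PBS library 2 the former was called, at -1.09 and -1.11. Il34, listed at 0 in the A/J and BALB/cJ PBS libraries, was 0.163 to 1.22 TPM with KLA over the inbred strains, under the level filter.

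KLA did not raise Csf3r. It was 24.4 and 22.9 TPM with PBS and 11.4 and 12.4 TPM with KLA in A/J, 48.1 and 46.6 TPM against 41.5 and 28.0 TPM in BALB/cJ, and 47.2 and 35.8 TPM against 26.2 and 20.5 TPM in C57BL/6J. KLA libraries were the lower ones in each inbred strain. The differences were -0.66 ± 0.21 in A/J (adjusted p = 0.024), -0.13 ± 0.20 in BALB/cJ (adjusted p = 0.60) and -0.52 ± 0.20 in C57BL/6J (adjusted p = 0.046), under the fold limit, and 0.29 ± 0.27 in CB6F1/J (adjusted p = 0.44). In the hybrid, 19.6 and 23.97 TPM with KLA overlapped with 18.0 and 27.5 TPM with PBS. Kupffer cells given LPS and BMDMs given KLA differed in ligand, dose and setting, and were not tested against each other.

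**Figure D4:**
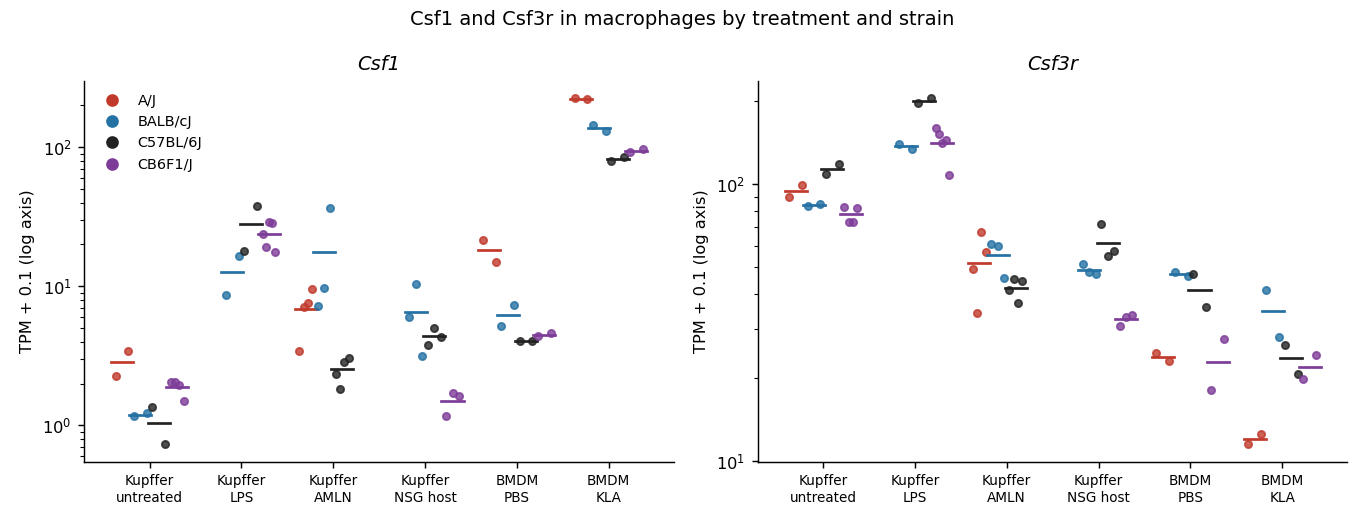
TPM (plus 0.1, log axis) of Csf1 and Csf3r in Kupffer cells (untreated, LPS, AMLN diet, NSG host) and BMDMs (PBS, KLA) by strain; points are libraries and dashes are group means. Csf1 is higher with LPS and KLA in each strain shown; Csf3r is higher with LPS in Kupffer cells (108 to 204 TPM) and lower with the AMLN diet (34.1 to 67.2 TPM) and in NSG hosts (30.7 to 71.7 TPM).

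The other growth factors of these receptors differed between the systems. Csf3, the gene of G-CSF, was listed at 0 to 0.172 TPM in untreated Kupffer cells of the inbred strains and was 118 and 286 TPM with LPS in BALB/cJ, 54.6 and 171 TPM in C57BL/6J and 199 to 365 TPM in CB6F1/J. With KLA it reached 2.40 to 8.03 TPM in BMDMs. Csf2, the gene of GM-CSF, reached 73.9 and 51.8 TPM in A/J, 14.6 and 15.8 TPM in BALB/cJ, 17.4 and 25.0 TPM in C57BL/6J and 13.9 and 8.90 TPM in CB6F1/J BMDMs with KLA, and at most 0.180 TPM in LPS Kupffer cells. Csf3 was thus the abundant one of the pair in LPS Kupffer cells and Csf2 in KLA BMDMs. Of 9 related ligand genes, 4 were tested for LPS in BALB/cJ; Csf3 and Ccl2, a monocyte chemoattractant, rose and Flt3l, the FLT3 ligand gene, fell.

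Of 12 genes of JAK-STAT signalling, used by the GM-CSF and G-CSF receptors among others, all were tested and LPS raised 7 in BALB/cJ (median log2 2.59), 9 in C57BL/6J (2.68) and 8 in CB6F1/J (2.90), beside medians of all genes of 0.0465, 0.0812 and 0.115, and 0 fell. Of all genes, 31.8%, 38.2% and 39.4% were called in either direction. They included Socs3 (8.93, 8.28 and 8.60), a feedback inhibitor of G-CSF signalling, Cish (6.80, 5.36 and 5.61), a STAT5 target, Jak2 (3.78, 3.91 and 3.93), the kinase bound to the beta chain, and Pim1 (4.198, 3.30 and 3.92). KLA raised 8 of 12 in A/J and 7 of 12 in each of BALB/cJ, C57BL/6J and CB6F1/J, beside 12.3%, 14.0%, 17.1% and 12.5% of all genes called. Of 24 genes of CSF1R signalling, LPS raised 7, 8 and 7 and lowered 2, 1 and 3 in BALB/cJ, C57BL/6J and CB6F1/J, with medians of 0.159, 0.256 and 0.320, so the share called was near that of all genes. Src, a kinase recruited by CSF1R, rose (3.83, 3.40 and 4.06), and Inpp5d, the phosphatase SHIP1, fell (-1.97, -2.12 and -2.05). KLA raised 4 of 24 in each of these strains and in A/J and lowered 1 in C57BL/6J, also near the share of all genes. Many of these genes answer to other signals too, and their counts are no measure of receptor activity.

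Of 13 transcription factors of macrophages, 10 were tested for LPS; 1, 2 and 1 rose and 4, 5 and 6 fell in BALB/cJ, C57BL/6J and CB6F1/J, beside the shares of all genes given above for LPS. Cebpa, a myeloid factor, fell (-4.34, -4.18 and -5.31), as did Klf4 (-3.68, -2.67 and -3.66) and Maf (-3.12, -3.00 and -3.35), and Runx1, a factor that acts at the Csf1r locus, rose (2.39, 2.91 and 2.52). Spi1, which encodes PU.1, the factor on which Csf1r expression depends, was in none of these LPS calls. With KLA, Spi1 rose in A/J (1.02), BALB/cJ (1.36), C57BL/6J (1.12) and CB6F1/J (1.46), and Cebpb rose (3.71, 2.98, 2.40 and 2.60). With library totals the medians of all genes shift as given above for LPS and from 0.0455 to 0.0749 to between -0.307 and -0.243 for KLA. Spi1 with KLA, near the limit of 1, was not refitted under that scaling.

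Csf1 was called higher in BALB/cJ Kupffer libraries on the AMLN diet. BALB/cJ held 7.09, 9.54 and 36.4 TPM, A/J 3.30, 7.00, 7.45 and 9.46 TPM and C57BL/6J 2.24, 1.73, 2.77 and 2.95 TPM on the diet. Library 3 of BALB/cJ stood far above the rest. BALB/cJ was called (3.87 ± 0.65, adjusted p = 0.0021), 1 of 2 member calls where 5.17% (BALB/cJ), 3.49% (A/J) and 12.1% (C57BL/6J) of genes were called, and A/J and C57BL/6J stayed under the level filter. The BALB/cJ call was kept without each library in turn (2.78 to 4.23). With the level filter left out, A/J (1.42 ± 0.55, adjusted p = 0.12) and C57BL/6J (1.56 ± 0.60, adjusted p = 0.070) were higher but not called. The responses differed by -2.45 in A/J minus BALB/cJ and 2.31 in BALB/cJ minus C57BL/6J, neither called, where 0.247% and 6.38% of genes were. DESeq2 called the latter (2.32, adjusted p = 0.029), and another setting gave -0.66. Without BALB/cJ diet library 1 it was also called (2.67). LSEC markers were 1291, 1089 and 3599 TPM in these 3 libraries and 512 and 525.9 TPM in their controls, and 6 of 9 were called higher with the diet. Stellate markers were 1008, 564 and 1181 TPM against 367 and 301 TPM. As a percentage of the LSEC marker sum, Csf1 was 0.549, 0.876 and 1.01% in the BALB/cJ diet libraries and 0.417 to 1.02% in LSECs (n = 12), against 0.0961 to 0.453% in untreated Kupffer libraries. With the LSEC marker sum as a covariate, added after seeing the data, the value was 1.75 (adjusted p = 0.094). The BALB/cJ diet and control libraries did not overlap in that sum, so this fit does not separate diet from LSEC markers in this strain. The LSEC marker sum was 330 to 505 TPM on the diet and 656 to 717 TPM untreated in C57BL/6J, and 599 to 1541 TPM and 656 to 732 TPM in A/J. LPS libraries held Csf1 at 2.24 to 7.60% of the LSEC marker sum. The part of LSEC RNA in the Csf1 values was not tested.

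Csf3r was lower with the diet. It was 49.3, 34.1, 67.2 and 56.7 TPM in A/J, 60.8, 59.8 and 45.7 TPM in BALB/cJ and 41.3, 45.3, 37.1 and 44.5 TPM in C57BL/6J, all below the untreated libraries of the same strain. C57BL/6J was called (-1.23 ± 0.18, adjusted p = 0.00032), and A/J (-0.75 ± 0.18, adjusted p = 0.026) and BALB/cJ (-0.72 ± 0.19, adjusted p = 0.037) stayed under the fold limit. In BALB/cJ the adjusted p was 0.26 and 0.20 without control 1 or 2, 0.135 without diet library 3, 0.056 without diet library 2, 0.087 with a replicate block and 0.80 (-0.34) with the LSEC marker covariate. In A/J it was 0.18 and 0.20 without control 1 or 2, 0.075 with the block and 0.069 (-0.60) with that covariate. The responses did not differ past the threshold, at 0.48 ± 0.26 for A/J minus C57BL/6J (adjusted p = 0.43), 0.51 ± 0.27 (adjusted p = 0.23) in BALB/cJ minus C57BL/6J and -0.03 ± 0.27 (adjusted p = 0.99) in A/J minus BALB/cJ, where 1.45%, 6.38% and 0.247% of genes were called. Neutrophil markers were higher in the diet libraries (20.2 to 235 TPM) than in untreated ones (1.61 to 10.2 TPM), while Csf3r was lower. Csf1r was -0.61 ± 0.18 in C57BL/6J (adjusted p = 0.020), from 2951 and 2931 TPM to 1484, 1958, 1622 and 1625 TPM, and 4 of 8 Kupffer markers fell in that strain. Csf2ra spread widely, at 773, 574, 259 and 299 TPM in A/J, 391, 187 and 187 TPM in BALB/cJ and 557, 644, 580.4 and 607 TPM in C57BL/6J. All 4 C57BL/6J diet libraries were above their controls (356 and 390.2 TPM), but the difference of 0.88 ± 0.45 was not called (adjusted p = 0.14). Socs3 rose in A/J (2.69) and BALB/cJ (3.23), and Trem2, a lipid receptor of macrophages, in A/J (2.04) and C57BL/6J (4.81).

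In Kupffer cells grown from grafted stem cells in NSG hosts, Csf1r was not called for the inbred donors. It was 2763, 2584 and 2699 TPM for BALB/cJ and 2624, 2542 and 2733 TPM for C57BL/6J donors, and NSG minus untreated was 0.07 ± 0.10 (adjusted p = 0.69) and -0.21 ± 0.10 (adjusted p = 0.11). For CB6F1/J donors it was 1217, 1782 and 1409.7 TPM, all below the untreated hybrid (2307 to 2699.8 TPM), in a table made separately, so this difference was not tested. Csf3r was lower, at 51.2, 48.1 and 47.2 TPM for BALB/cJ and 71.7, 55.1 and 57.4 TPM for C57BL/6J donors, all below the untreated libraries. The differences of -0.81 ± 0.11 (adjusted p = 1.0e-04) and -0.94 ± 0.11 (adjusted p = 1.4e-05) stayed just under the fold limit. Csf2rb was lower by values of -0.72 ± 0.19 (adjusted p = 0.018) and -0.66 ± 0.19 (adjusted p = 0.017). With 5.48% (BALB/cJ) and 8.44% (C57BL/6J) of genes called against untreated cells and 3.98% between donors, 0 members were called in edgeR and DESeq2; 5 of the NSG against untreated tests passed an adjusted p of 0.05. Csf1 was 5.96, 10.4 and 3.06 TPM for BALB/cJ, 3.70, 4.92 and 4.25 TPM for C57BL/6J and 1.08, 1.62 and 1.53 TPM for CB6F1/J donors. The inbred donors were above their untreated libraries and the hybrid was not, and with the level filter left out Csf1 was called in both inbred strains (2.50 ± 0.45 and 2.12 ± 0.46). LSEC markers summed to 761 to 839 TPM in NSG libraries of the inbred donors against 512 to 732 TPM in untreated Kupffer cells. Lymphoid markers summed to 62.7 to 373 TPM in NSG libraries of the inbred donors against 0.323 to 8.94 TPM untreated, and mesothelial, portal and biliary markers to 19.4 to 118.7 TPM against 0.897 to 4.92 TPM. In the hybrid NSG libraries these sums were 10.1 to 16.045 and 2.64 to 4.81 TPM. Monocyte markers were 458 to 639 TPM in hybrid NSG libraries against 23.0 to 54.9 TPM untreated. They were 129 to 204 TPM against 11.4 to 20.9 TPM for BALB/cJ and 216 to 258 TPM against 124 to 183 TPM for C57BL/6J. The part of these cells in the Csf1 and Csf1r values was not tested. Between donors in the same host, Csf3r was -0.26 ± 0.10 (adjusted p = 0.090) in BALB/cJ minus C57BL/6J. The difference of NSG from untreated cells did not itself differ between donors among the members (0 called, none under an adjusted p of 0.05, 1.29% of genes called). Of 11 related receptors, Flt3, a receptor of early blood progenitors, was called higher for both donors, and Trem2 fell in BALB/cJ (-1.70 ± 0.27).

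In CB6F1/J mice, reads that span a variant between the parents were assigned to an allele, which compares the alleles in the same cell. None of the members tested was called, where 4.13% (untreated Kupffer), 5.59% (LPS Kupffer), 2.99% (NSG Kupffer), 3.84% (PBS BMDM) and 3.91% (KLA BMDM) of genes were. Il34 was not tested. Csf1 was under the level filter in untreated Kupffer, NSG Kupffer and PBS BMDM libraries and was not tested within these states. Its BALB/cJ share in PBS BMDMs was 45.5 and 57.1% (88 to 148 reads). The BALB/cJ share of Csf1 was 51.9 and 52.3% in KLA BMDMs (1568 to 1873 reads) and 42.9 to 54.9% in LPS Kupffer cells (166.5 to 293 reads, 5 libraries). The KLA value corresponded to 0.14 ± 0.02 (adjusted p = 0.059). In the same state, Csf1 in the parents was 145 and 129.7 TPM in BALB/cJ and 79.3 and 84.3 TPM in C57BL/6J. Untreated Kupffer cells gave only 14 to 15 such reads per library and NSG libraries 1.5 to 35, too few for a share.

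Csf1r shares were 47.8 to 50.2% in every library (at least 35946 reads), and Csf2ra shares 47.8 to 51.2%. Csf3r lay at 46.7 to 47.7% in untreated Kupffer cells (4 libraries), corresponding to -0.13 ± 0.02 (adjusted p = 0.0048, up to 0.43 under other settings). In BMDMs it lay at 51.4 to 53.4% (4 libraries). All 4 untreated Kupffer libraries were under 50% and all 4 BMDM libraries above it. The BMDM allele differences were 0.12 with PBS and 0.16 with KLA. Their adjusted p was no lower than 0.12 and 0.087 under the other settings. Csf3r lay at 45.9 to 49.9% in LPS Kupffer libraries and at 43.7 to 52.1% in NSG ones. Csf2rb was 52.0, 53.4, 52.5 and 52.1% in untreated Kupffer cells and 48.0, 46.9, 47.5, 48.2 and 45.4% with LPS. All untreated libraries were above 50% and all LPS libraries below it. The allele difference was 0.17 ± 0.02 (adjusted p = 0.0028) without and -0.12 ± 0.03 (adjusted p = 0.034) with LPS. Its change with LPS was -0.29 ± 0.04 (adjusted p = 0.0019), small and under the fold limit, where 1.21% of genes were called. Under other settings the adjusted p reached 0.17 without LPS, 0.59 with LPS and 0.44 for the change. With a library left out, the value with LPS reached an adjusted p of 0.093. NSG libraries lay at 50.4 to 50.7% and KLA BMDMs at 43.6 and 44.6%. Between KLA and PBS BMDMs no member changed its allele difference past the threshold (0.0275% of genes called).

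Csf2rb2 had a larger allele difference. Its BALB/cJ share was 34.5 and 38.3% in PBS BMDMs and 31.6 and 32.9% in KLA BMDMs, against 52.3 to 53.0% in untreated, 44.7 to 46.4% in LPS and 54.8 to 58.3% in NSG Kupffer cells. The KLA value was called (-1.05 ± 0.03, adjusted p = 0.011), and PBS BMDMs gave -0.77 ± 0.07 (adjusted p = 0.013), beside the parental difference of -1.27 ± 0.10 in PBS BMDMs. In untreated Kupffer cells the parents differed by 0.28 ± 0.21 (adjusted p = 0.36) and the alleles by 0.17 ± 0.01 (adjusted p = 0.00095). The BMDM libraries thus carried the C57BL/6J allele in excess, and the untreated and NSG Kupffer libraries did not. Since Csf2rb and Csf2rb2 share sequence, how far the small Csf2rb shift shares reads with Csf2rb2 was not tested.

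**Figure D5:**
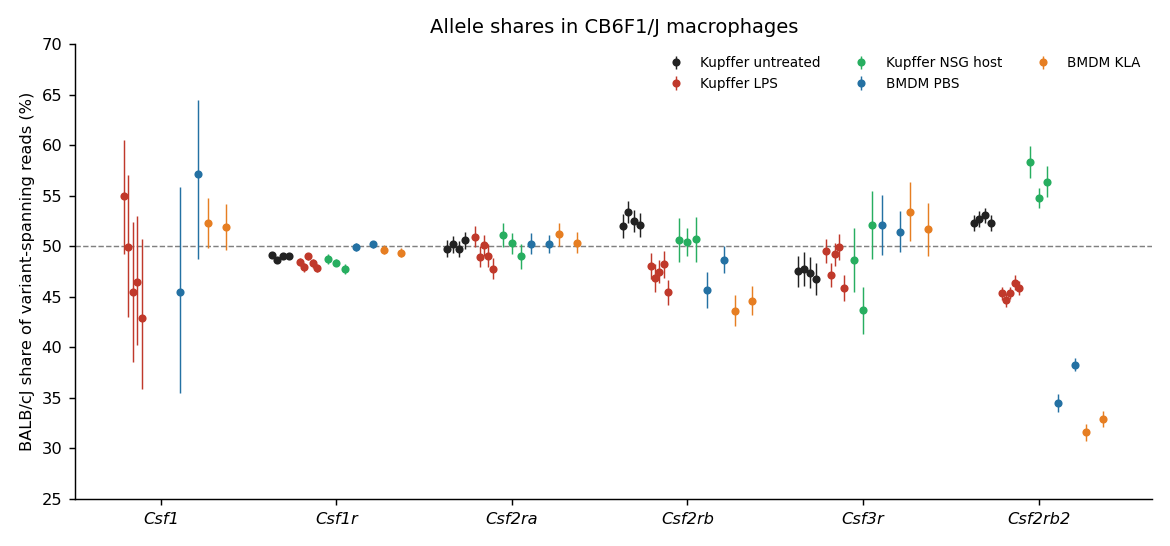
BALB/cJ share (%) of variant-spanning reads in each CB6F1/J library for 5 members and Csf2rb2, with 95% Wilson intervals that cover counting error only; libraries under 50 such reads are left out. The dashed line is 50%. Csf1r and Csf2ra stay within 47.8 to 51.2%, Csf2rb is above 50% in untreated and below it in LPS Kupffer cells, and Csf2rb2 lies at 31.6 to 38.3% in BMDMs.

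Genes most like each member were found by Pearson's r of log2(TPM + 1) over the 25 parental groups, among 11463 named genes above 8 TPM in a group; groups of 1 cell type share their markers, so r mainly follows cell type and is a description. Csf1r went with Ctss (0.995), a lysosomal protease, AB124611 (0.994) and Adgre1 (0.991), which encodes F4/80, an antigen used in the sort. Csf2ra went with Tyrobp (0.994), Laptm5 (0.992) and Ly86 (0.991). Csf2rb went with Pou2f2 (0.992), Lrrc25 (0.992) and Slc11a1 (0.990), and Csf3r with Slc11a1 (0.981), Csf2rb (0.979) and Pik3cd (0.978). Il34 went with Ntm (0.988), Fendrr (0.987) and Foxf1 (0.987), a mesenchymal factor of stellate cells. Csf1, with more than 1 kind of source, had looser neighbours: Sgms1 (0.915), Trip10 (0.913) and Dusp5 (0.912).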

How the data were processed

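RNA-seq libraries were made from poly(A) RNA with a dUTP (stranded) method. The authors mapped reads with STAR to strain genomes shifted to mm10 and counted exon reads with HOMER, per the labels and methods; versions and the strand setting are not given in the sources used here. The deposited count tables hold counts for liver cells, and the deposited BMDM and CB6F1/J tables hold expected counts (multiples of 0.5), rounded here before testing. The deposited TPM tables of the authors gave levels and sum to 501281 to 595601 per parental library. Allele columns hold expected counts of variant-spanning reads. Of 20 tables, 6 were not used, and 104 per-sample columns had no sample.

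Tests used edgeR 4.0.16 (R 4.3.3, TMM factors, robust quasi-likelihood fit). Genes had to pass filterByExpr and a mean above 8 TPM in a group of the contrast. Allele tests took autosomal genes with the same level filter and a mean of at least 10 variant-spanning reads over the libraries, without filterByExpr. Alleles were paired within the library. SEs are the log2 fold change over the root of the F statistic. DESeq2 1.42.0 was an alternative. Hybrid responses used perfect reads summed over both genomes. The members, lists and tests were chosen with earlier results of these data known. Named genes were the 6 members, up to 4 called genes of a list per contrast and the 3 genes most like each member; Csf2, Csf3, Csf2rb2, Spi1 and others outside it were added from the lists after their values were seen. Labels do not say that libraries are separate animals, and p-values then reflect only how libraries vary, which may be technical. For each kind of comparison, 1 contrast was tested on simulated counts.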

Additional observations from a re-analysis of the deposited data

Results flagged for a closer look

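Over 54 pairs of a member and a group of 4 to 10 libraries, 1 library stood apart from its group: Csf3r was 3.28 TPM in BALB/cJ LSEC library 1 and 0.163 to 0.306 TPM in the other 3 libraries. About 1 in 20 such groups stands out by chance. That library also held 14.1 TPM of neutrophil markers against 0 to 0.333 TPM in the others, and 8521 TPM of hepatocyte markers against 869 to 1474 TPM. The part of other cells in the Csf3r value was not tested.

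Strain differences of Csf3r in Kupffer cells and BMDMs differed from each other in the test of the interaction in all 3 strain pairs, at 1.14 ± 0.16 for A/J minus BALB/cJ (adjusted p = 7.9e-05), 0.59 ± 0.16 for A/J minus C57BL/6J (adjusted p = 0.013) and -0.54 ± 0.16 (adjusted p = 0.023) in BALB/cJ minus C57BL/6J. The pairs share libraries. Neutrophil markers summed to 82.1 to 113 TPM in A/J, 83.4 to 127 TPM in BALB/cJ and 67.7 to 72.8 TPM in C57BL/6J PBS BMDMs.

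The allele difference of Csf2rb changed between untreated and LPS Kupffer cells of the hybrid by -0.29 ± 0.04 (adjusted p = 0.0019, up to 0.44 under other settings). The BALB/cJ share went from above 50% in 4 of 4 libraries to below 50% in 5 of 5. The allele difference of Csf2rb2, with which Csf2rb shares sequence, changed by -0.39 ± 0.02 (adjusted p = 6.2e-06).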

How the results depend on the processing

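Of 1270 values of the 227 member results under other settings, 1221 kept direction and side of the threshold, 26 uncalled values changed sign, 13 became called, 5 lost their call and 5 changed sign with a call; with libraries left out, of 2123 values 2028 stayed, 67 uncalled values changed sign, 20 became called and 8 lost their call, and no called value changed sign. Settings with library totals, marker sums, C57BL/6J reads of the hybrid and single libraries of the Kupffer against BMDM fit were chosen after seeing the data. The latter 5 came with the Kupffer marker sum as a covariate in stellate cells: A/J minus BALB/cJ gave -0.042 for Csf1r, -0.73 for Csf2ra and -0.60 for Csf2rb, and BALB/cJ minus C57BL/6J gave 0.0195 for Csf1r and 0.10 for Csf2rb. Member calls moved from 6 to 0 with that covariate, from 2 to 1 for the diet with the LSEC marker sum, from 4 to 2 for LPS with library totals (Csf3r in both strains; in the hybrid Csf3r was lost and Csf1r gained), and, without the level filter, which admits genes near 0 TPM, from 0 to 2 in untreated Kupffer strains, 0 to 1 in hepatocyte strains, 3 to 6 for KLA, 1 to 2 for hybrid KLA and 0 to 2 in NSG hosts. DESeq2 called 1 member in LSECs in place of 0, and 1 fit over all parental Kupffer libraries called 1 in NSG hosts in place of 0 (Csf3r in C57BL/6J, -1.04). With libraries left out, calls ranged over 3 to 5 in PBS BMDM strains, 4 to 8 in stellate strains, 5 to 7 in Kupffer against BMDM, 4 to 5 for LPS, 3 to 4 for KLA, 2 to 3 for the diet and 0 to 1 in NSG hosts, and stayed at 0 in Kupffer, LSEC and hepatocyte strains and alleles, 27 in liver cell types, 2 for hybrid LPS and 1 for hybrid KLA. In NSG hosts the 1 call came without BALB/cJ control 2 (Csf2rb, -1.14), C57BL/6J control 1 (Csf3r, -1.03), C57BL/6J NSG 1 (Csf3r, -1.08) or BALB/cJ NSG 3 (Csf1, which then passed the level filter). Csf2rb in LPS BALB/cJ was 1.12 and called without control 1, and Csf2rb in the BALB/cJ diet contrast -1.24 without control 2. Leaving out a replicate number of all groups left no residual degrees of freedom in Kupffer against BMDM.

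Replicate numbers did not pair the libraries: correlations of same-numbered deviations ran from -0.396 to 0.581. With a replicate block, stellate calls were 7 (Csf2ra, BALB/cJ minus C57BL/6J, -1.10, adjusted p = 0.046), Kupffer against BMDM calls 6 (Csf2rb interaction, A/J minus C57BL/6J, 1.06, adjusted p = 0.018) and diet calls 3 (Csf2ra in C57BL/6J, 1.28, adjusted p = 0.034). Allele calls were 0 with and without the library as a block. DESeq2 gave no adjusted p for 5 Csf3r values between liver cell types. With 2 libraries per group, BALB/cJ Kupffer contrasts of Csf2rb rest on libraries at 263 and 144 TPM: left out in turn, they gave -0.58 to 0.30 for A/J minus BALB/cJ.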
